A study of Mus musculus with 6 samples.

Results

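The genes described here are the 8 basement membrane collagens of the mouse: the chains of collagen IV, Col4a1 to Col4a6, and the multiplexins Col15a1 and Col18a1. They were taken by gene name from a table of RNA-seq read counts for 43430 Ensembl gene IDs, and all 8 were present and passed the filter on low counts. The mice were C57BL/6J males, 9 to 11 weeks old, and the cells were lung fibroblasts isolated by sorting for the receptor PDGFRA. In the hypercapnia group 9 mice breathed 10% CO2 for 10 days under normal oxygen, and in the room air group 9 mice breathed room air. The samples are labelled day 10 in hypercapnia and day 0 in room air, so by the labels CO2 and day cannot be told apart. The cells of 3 mice were pooled into each library, which gave 3 libraries per group, called M4, M5 and M6 (hypercapnia) and M1, M2 and M3 (room air). The spread between libraries is therefore a spread between pools of animals. No genetic modification is named for either group.

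A basement membrane is the thin sheet of matrix under epithelia and endothelia and around smooth muscle, fat and nerve. Collagen IV is its main structural protein. Chains assemble in the cell as triple helices, which join at their ends into a network outside it, and the network is held together by covalent bonds between the globular C-terminal domains. The chains encoded by Col4a1 and Col4a2 form the network found in nearly all basement membranes, those of Col4a3, Col4a4 and Col4a5 form a network of the kidney glomerulus and the lung alveolus, and those of Col4a5 and Col4a6 form one around smooth muscle and in skin. The multiplexins sit at the outer face of basement membranes and carry heparan or chondroitin sulphate chains, and their C-terminal fragments, among them endostatin from collagen XVIII, are known as inhibitors of vessel growth.

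The collagen IV genes lie head to head in pairs, so that each pair shares a promoter region, and the sequences between the start sites are shown because the ratios within these pairs are described further on. By the GENCODE M21 annotation (mm10, the build the submitters name), Col4a1 (ENSMUSG00000031502, minus strand, chr8:11198423-11312826) and Col4a2 (ENSMUSG00000031503, plus strand, chr8:11312805-11449287) share 22 bases at their 5′ ends. Col4a4 (ENSMUSG00000067158, minus strand, chr1:82448423-82586849) and Col4a3 (ENSMUSG00000079465, plus strand, chr1:82586921-82722059) are separated by 71 bases. Col4a6 (ENSMUSG00000031273, minus strand, chrX:141165403-141474076) and Col4a5 (ENSMUSG00000031274, plus strand, chrX:141475385-141689234) are separated by 1308 bases. Col15a1 (ENSMUSG00000028339) lies on the plus strand at chr4:47208161-47313167 and Col18a1 (ENSMUSG00000001435) on the minus strand at chr10:77052178-77166548. The sequences below are from RefSeq's promoter windows (GRCm38.p6), 5′ to 3′ on the strand named, with capitals for the GC box GGGCGG or its reverse complement CCGCCC.
Bases shared by the first exons of Col4a1 and Col4a2, chr8:11312805-11312826, plus strand: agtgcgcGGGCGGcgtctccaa
Gap between the starts of Col4a4 and Col4a3, chr1:82586850-82586920, plus strand: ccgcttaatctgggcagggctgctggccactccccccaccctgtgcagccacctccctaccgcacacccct
The 100 bases before the start of Col4a6, chrX:141474077-141474176, minus strand: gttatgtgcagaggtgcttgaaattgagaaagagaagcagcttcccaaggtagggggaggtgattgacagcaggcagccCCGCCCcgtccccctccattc
The 100 bases before the start of Col4a5, chrX:141475285-141475384, plus strand: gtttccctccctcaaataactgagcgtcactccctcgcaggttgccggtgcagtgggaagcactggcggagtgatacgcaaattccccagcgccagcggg

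The stretch shared by Col4a1 and Col4a2 was 72.7% G and C, the gap between Col4a4 and Col4a3 69.0%, and the stretches before Col4a6 and Col4a5 57% and 61%. RefSeq's table held 8 windows, each from 250 bases before to 50 bases after a start, for 7 of the 8 genes (not Col4a3, and 2 for Col18a1). Read on both strands, the GC box GGGCGG was in 5 of these windows, those of Col4a1, Col4a2, Col4a5, Col4a6 and Col18a1, against 35.7% of 32851 windows of all genes. The windows of Col4a1 and Col4a2 overlap and both hold the shared stretch with its GC box, so they are not independent. The CCAAT box (CCAAT) was in 4, those of Col4a1, Col4a2, Col4a5 and Col18a1, against 37.4% of all windows. The TATA box (TATAAA) was in 0 of the 8 and in 13.6% of all windows, and the E-box CACGTG in 0 of the 8 and in 7.15%. A match is a match of letters and not a measured binding site.

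Total counts ran from 8999780 to 10198336 per library. Levels are given as CPM (counts scaled to the library's total, with TMM composition factors) or, where genes are compared with each other, as RPKM (CPM per kilobase of annotated exon). A count of 3 corresponds to 0.281 to 0.354 CPM. The fibroblast markers Pdgfra and Col1a1 averaged 2971 and 4942 CPM in hypercapnia and 3562 and 5078 CPM in room air, and Ptprc, which marks all leukocytes, was above 0 in 1 library, at 0.236 CPM. Epcam, a marker of epithelium, ran from 0 to 2.24 CPM. The summed markers of airway epithelium were at 149 to 358 CPM in hypercapnia and 337 to 561 CPM in room air (7 of 7 log2 fold changes negative, 0 called), those of alveolar type 2 cells at 156 to 334 CPM in hypercapnia and 105 to 253 CPM in room air (0 called), and those of leukocytes, with Cd3e and Marco at 0 throughout, at 24.6 to 60.7 CPM in hypercapnia and 10.9 to 54.6 CPM in room air. Mesothelial markers summed to 127 to 200 CPM in hypercapnia and 226 to 274 CPM in room air, without overlap. Of the 4 measured, 1 was called lower, and the log2 fold changes of the other 3 were positive. Endothelial cells are a known source of several of these collagens, and their transcripts were present. The summed level of 20 endothelial markers was 4204, 3256 and 2552 CPM in M4, M5 and M6 and 2661, 2256 and 663 CPM in M1, M2 and M3, with none of the 20 at 0. All 20 log2 fold changes were positive, with a median of 0.87, and 0 were called. At an unadjusted edgeR p under 0.05 there were 11, beside 12% of all tested genes. The groups were separate for 7, beside 18% of all tested genes. Pecam1, one of the 20 markers, averaged 308 ± 81.7 CPM in hypercapnia and 169 ± 101 CPM in room air (SD, n = 3 each, log2 fold change 0.87 ± 0.41, SE, edgeR adjusted p = 0.437), and the log2 fold change was 0.46 without M3. The 8 markers of alveolar type 1 cells, the thin epithelium that lies on the alveolar basement membrane, summed to 526 to 660 CPM in hypercapnia and 636 to 750 CPM in room air, and most of that sum was Emp2. Ager, the defining marker of these cells and singled out, like Emp2, after the values were seen, averaged 10.3 ± 5.76 CPM in hypercapnia and 19.1 ± 10.7 CPM in room air. Markers of alveolar fibroblasts summed to 15393 to 17718 CPM in hypercapnia and 20562 to 21092 CPM in room air (6 of 12 fell by edgeR), those of adventitial fibroblasts to 2565 to 3320 CPM in hypercapnia and 2287 to 2624 CPM in room air (1 of 12 rose), and those of pericytes and smooth muscle to 374 to 399 CPM in hypercapnia and 306 to 318 CPM in room air (0 of 8 measured passed). Of the 8 measured markers of pericytes and smooth muscle, 4 had positive and 4 negative log2 fold changes, from -0.95 to 0.93. At an unadjusted edgeR p under 0.05 there were 4 of them, and the groups were separate for 4, beside 12% and 18% of all tested genes. The part of all these shifts in the levels of the collagens was not tested. In such bulk libraries, fewer cells of a type and less RNA per cell cannot be told apart.

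Among these genes, the libraries of sorted cells held mainly the transcripts of the common collagen IV network. Which cells in them carried these transcripts was not tested. Per length and over all 6 libraries, Col4a1 averaged 188 ± 26.3 RPKM (SD) and Col4a2 146 ± 15.8 RPKM. Col18a1 came next at 56.5 ± 5.68 RPKM, before Col4a5 at 45.4 ± 5.93 RPKM and Col15a1 at 26.3 ± 5.04 RPKM. Col4a6 stood at 6.71 ± 1.62 RPKM, Col4a4 at 1.49 ± 0.33 RPKM and Col4a3 at 1.18 ± 0.36 RPKM. Across libraries the ranges overlapped between Col4a1 and Col4a2, between Col18a1 and Col4a5 and between Col4a4 and Col4a3. Within a library Col4a1 was above Col4a2 and Col18a1 above Col4a5 in all 6, while Col4a4 was above Col4a3 in 5 of 6, so the lowest pair alone had no fixed order.

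**Figure D1:**
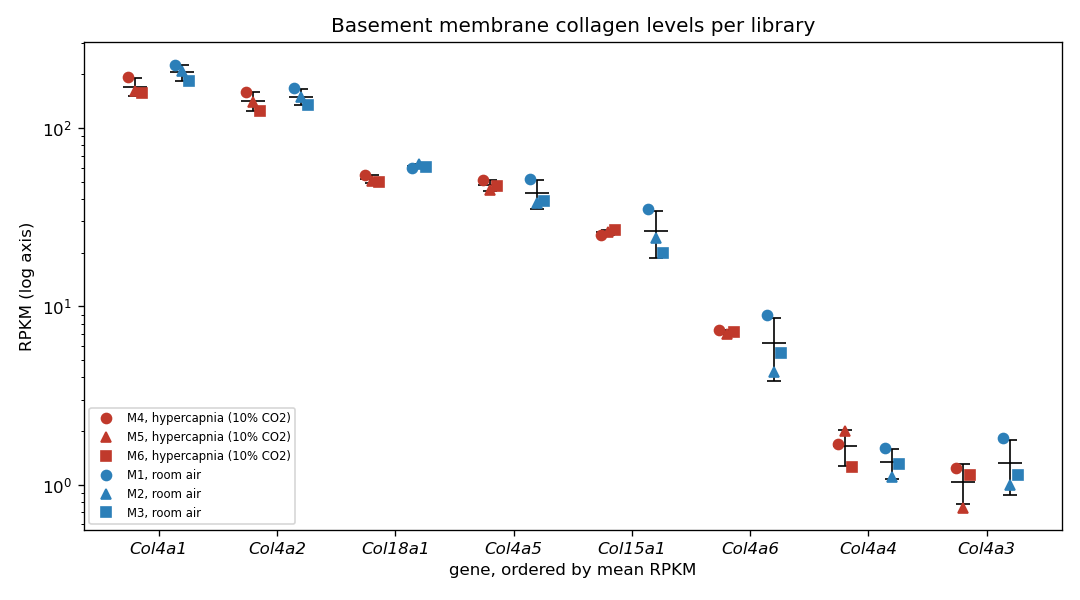
RPKM of the 8 collagen genes on a log axis, ordered by mean, with 1 point per library, hypercapnia left of room air, and black bars for mean ± SD (n = 3 libraries). Col4a1 and Col4a2 lie above 125 RPKM in every library and Col4a3 and Col4a4 below 2 RPKM, and the groups are separate for Col18a1 alone.

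In hypercapnia none of the 8 collagen genes passed the test. By edgeR's quasi-likelihood test with Benjamini-Hochberg adjustment over 13005 genes, 0 of 8 had an adjusted p under 0.05, where 1.22% of all tested genes did (159 genes, 0.523% higher and 0.7% lower). DESeq2 and limma-voom called 0 of 8 as well. At an unadjusted p under 0.05 there were 2, Col18a1 and Col4a1, beside 12% of all tested genes. The log2 fold changes ran from -0.35 to 0.31 with a median of -0.06, beside a median of 0.01 over all tested genes, and 5 were negative and 3 positive. Hypercapnia and room air libraries were fully separate for 1 gene of the 8, Col18a1, which was lower, beside 18% of all tested genes (9.28% higher and 8.74% lower). For a list of 8 genes these counts are near their backgrounds.

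**Figure D2:**
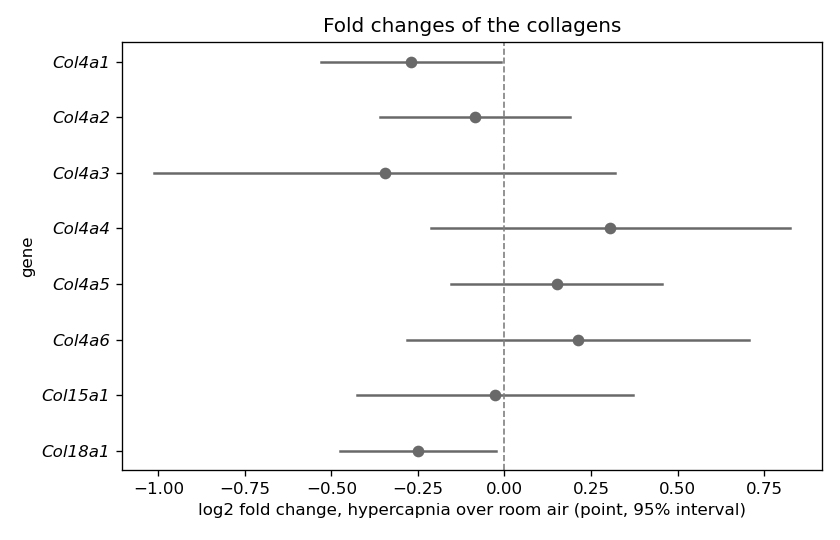
log2 fold change of each collagen gene, hypercapnia over room air, with its approximate 95% interval from edgeR's fit of all 6 libraries. The intervals of Col4a1 and Col18a1 end just below 0, at -0.01 and -0.02, before any adjustment for the number of genes, and those of the other 6 genes include 0. All intervals use degrees of freedom that edgeR borrows over genes, and would be wider with the residual ones alone.

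Col4a1 encodes the chain present as a pair in each helix of the common network. It had 1439, 1209 and 1180 CPM in M4, M5 and M6 (hypercapnia), against 1684, 1558 and 1370 CPM in M1, M2 and M3 (room air). M4 lay above M3, so the groups overlapped by 1 library on each side. The ratio of hypercapnia to room air was 0.83 with an approximate 95% interval of 0.693 to 0.994 (log2 fold change -0.27 ± 0.12, SE, edgeR adjusted p = 0.393). The interval is not adjusted for the number of genes.

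Col4a2 encodes the partner chain of the same helix. It had 1058, 923 and 829 CPM in M4, M5 and M6, against 1105, 987 and 890 CPM in M1, M2 and M3. The groups overlapped over most of their range. The log2 fold change was -0.09 ± 0.12 (SE, edgeR adjusted p = 0.866), between -0.18 without M4 and -0.005 without M1 when 1 library was left out, and the 95% interval of the ratio ran from 0.779 to 1.14.

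Col4a5 is shared by both of the specialised networks. It had 343, 301 and 319 CPM in M4, M5 and M6, against 350, 257 and 261 CPM in M1, M2 and M3. M1 was the highest library of all, and the other room air libraries lay below every hypercapnia library. The log2 fold change was 0.15 ± 0.14 (SE, edgeR adjusted p = 0.756), 0.31 without M1 and 0.07 without M2, with a 95% interval of the ratio of 0.899 to 1.37.

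Col4a6, the partner of Col4a5 in smooth muscle basement membranes, had 59.1, 55.7 and 57.3 CPM in M4, M5 and M6, against 71.1, 34.2 and 43.4 CPM in M1, M2 and M3. The room air libraries spanned the hypercapnia ones on both sides. Their highest value was 2.08 times their lowest, against 1.06 times in hypercapnia. The log2 fold change of 0.21 ± 0.22 (SE, edgeR adjusted p = 0.796) was smaller than its error and depended on single room air libraries: it rose to 0.56 without M1 and fell to 0.003 without M2.

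Col4a3 and Col4a4, whose chains are known from the glomerular and alveolar basement membrane and from the hereditary kidney disease Alport syndrome, were detected at low levels in every library. Col4a3 had 109, 75 and 120 counts in M4, M5 and M6, against 155, 94 and 107 counts in M1, M2 and M3, or 12.4, 7.38 and 11.2 CPM against 18.3, 9.88 and 11.4 CPM. Col4a4 had 157, 215 and 143 counts in M4, M5 and M6, against 144, 111 and 130 counts in M1, M2 and M3, or 17.9, 21.2 and 13.4 CPM against 17.0, 11.7 and 13.8 CPM. The groups overlapped for both genes. The log2 fold changes were -0.35 ± 0.30 for Col4a3 and 0.31 ± 0.23 for Col4a4 (SE, edgeR adjusted p = 0.741 and 0.694), and the 95% intervals of the ratios, 0.495 to 1.25 and 0.862 to 1.77, are on the log scale the widest of the 8 genes. The log2 fold change of Col4a3 was -0.04 without M1, and that of Col4a4 was 0.14 without M5 and 0.47 without M6. Of the exonic bases of Col4a3, 5.65% overlap the model C430014B12Rik on the other strand, which had 0, 0 and 1 counts in M4, M5 and M6 and 1, 2 and 7 counts in M1, M2 and M3. The strand setting of the counting is not given in the sources used here.

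Col15a1, the multiplexin that bridges basement membranes and the fibrillar collagen beneath them, had 159, 167 and 170 CPM in M4, M5 and M6, against 224, 154 and 127 CPM in M1, M2 and M3. The hypercapnia values lay close together inside the range of the room air values. The log2 fold change was -0.03 ± 0.18 (SE, edgeR adjusted p = 0.977), and the sign was not fixed: it was 0.23 without M1, -0.20 without M3, 0.05 without composition factors and 0.02 by limma-voom.

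Col18a1, the precursor of endostatin, had 383, 354 and 350 CPM in M4, M5 and M6, against 422, 444 and 427 CPM in M1, M2 and M3. Every hypercapnia library lay below every room air library. The means were 362 ± 18.2 CPM in hypercapnia and 431 ± 11.5 CPM in room air (SD, n = 3 each), a ratio of 0.841 with a 95% interval of 0.72 to 0.983. The log2 fold change was -0.25 ± 0.10 (SE), and over all genes the edgeR adjusted p was 0.347. It stayed between -0.29 and -0.19 over 14 other settings, with adjusted p from 0.225 to 0.701. Its counts cover both promoters of the gene and all of its isoforms together.

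Single libraries stood high for most of the genes. M1 had the highest value of the room air libraries for 7 of the 8 genes, all but Col18a1, and M4 the highest of the hypercapnia libraries for 6, all but Col4a4 and Col15a1. M1 and M4 were also the libraries with the highest endothelial marker sums of their groups. They had, besides, the lowest total counts (8999780 in M1, 9009124 in M4) and the lowest TMM factors (0.943 and 0.976) of their groups. The part of either in the high values was not tested. When the fit held each library's mean level of endothelial markers as a covariate, the log2 fold changes were -0.44 for Col4a1 (edgeR adjusted p = 0.1), -0.27 for Col4a2, -0.55 for Col4a3, 0.19 for Col4a4, 0.01 for Col4a5, 0.03 for Col4a6, -0.30 for Col15a1 and -0.28 for Col18a1, and again 0 of 8 passed. Col18a1 moved least there, and Col15a1 moved most. The marker sums tend to be higher in hypercapnia, so with 3 libraries per group the covariate and the group are not independent.

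**Figure D3:**
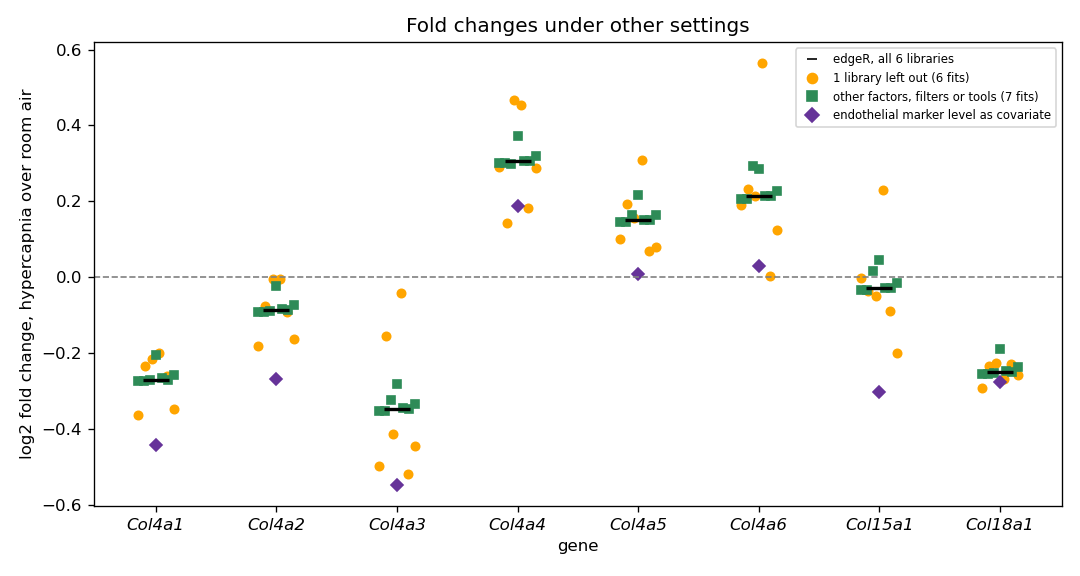
log2 fold change of each collagen gene, hypercapnia over room air, in the fit of all 6 libraries (black bar), with 1 library left out in turn (orange circles), with other factors, filters or tools (green squares) and with the endothelial covariate (purple diamond). Of 112 such values 3 changed sign, all of Col15a1, and the values of Col4a6 and Col15a1 spread over the widest ranges.

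Ratios of paired chains within a library do not depend on library size or composition factors. Per length, Col4a1 exceeded Col4a2 by 1.21, 1.16 and 1.26 times in M4, M5 and M6 (hypercapnia), and by 1.35, 1.40 and 1.37 times in M1, M2 and M3 (room air). All hypercapnia ratios were below all room air ratios. The log2 ratio averaged 0.27 ± 0.06 in hypercapnia and 0.46 ± 0.03 in room air (SD, n = 3 each), a difference of -0.18 ± 0.04 (SE), or a factor of 0.881. The exact two-sided permutation test over libraries gave p = 0.1, the smallest p that 3 against 3 libraries allow, and 0.4 after Benjamini-Hochberg adjustment over the 4 pairs tested. Counting error was smaller than the difference: Col4a1 made up 56.7% to 58.7% of the reads of both genes in hypercapnia and 60.4% to 61.2% in room air, and the exact 95% binomial intervals, which cover counting error only, reached up to 59.4% in hypercapnia and down to 59.8% in room air. With the longest transcript as the length, the ratios ran from 1.28 to 1.39 in hypercapnia and from 1.49 to 1.54 in room air.

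For the other pairs the groups overlapped. The test does not set Col4a1 to Col4a2 apart from them, since its adjusted permutation p of 0.4 was also that of Col4a3 to Col4a4. The log2 ratio of Col4a3 to Col4a4 averaged -0.68 ± 0.67 in hypercapnia and -0.05 ± 0.21 in room air (SD, n = 3 each, exact permutation p = 0.2, adjusted over the pairs 0.4), and M5, with 75 reads of Col4a3 and 215 of Col4a4, held the lowest ratio at 0.371. Without M5 the difference was -0.25 in place of -0.63. The log2 ratio of Col4a5 to Col4a6 averaged 2.73 ± 0.05 in hypercapnia and 2.85 ± 0.31 in room air (exact permutation p = 0.7, adjusted 0.7), with Col4a5 between 5.84 and 8.92 times as abundant per length. The log2 ratio of Col15a1 to Col18a1 averaged -0.99 ± 0.12 in hypercapnia and -1.25 ± 0.43 in room air (exact permutation p = 0.4, adjusted 0.533), with the lowest ratio, 0.329, in M3 and the highest, 0.588, in M1.

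**Figure D4:**
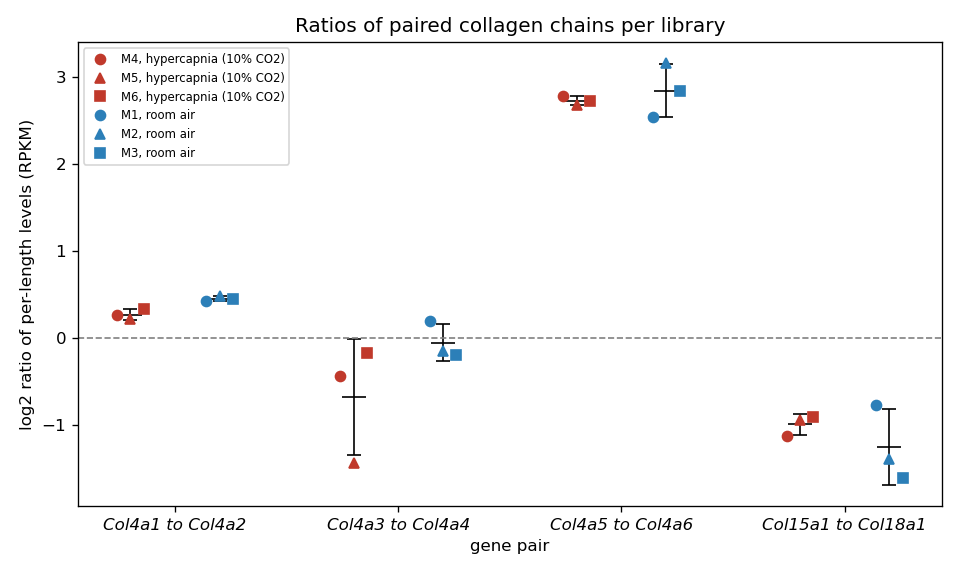
log2 ratio of the per-length levels of 4 gene pairs in each library, hypercapnia left of room air, with black bars for mean ± SD (n = 3 libraries) and a dashed line at equal levels. For Col4a1 to Col4a2 the groups are separate, at 0.22 to 0.34 in hypercapnia and 0.43 to 0.48 in room air, and for the other pairs they overlap.

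As shares of the summed RPKM of the 6 collagen IV genes, Col4a1 held 46.2 ± 0.57% in hypercapnia and 50.5 ± 1.26% in room air, and Col4a2 held 38.2 ± 1.23% in hypercapnia and 36.8 ± 0.27% in room air (SD, n = 3 each). Col4a5 held 13.0 ± 0.86% in hypercapnia and 10.5 ± 0.96% in room air. Col4a6 held 1.95 ± 0.16% in hypercapnia and 1.5 ± 0.44% in room air, and Col4a3 and Col4a4 together stayed under 1% in each library. The shares of Col4a1 did not overlap between groups (45.5% to 46.5% in hypercapnia, 49.4% to 51.9% in room air), nor did those of Col4a5 (12.3% to 13.9% in hypercapnia, 9.50% to 11.4% in room air) or of Col4a4 (0.371% to 0.56% and 0.273% to 0.356% in hypercapnia and room air). Col4a1 and Col4a2 together held 83.2% to 85.2% in hypercapnia and 85.9% to 88.9% in room air, also without overlap. The shares of Col4a2, Col4a3 and Col4a6 overlapped. Single genes were separate between groups in 18% of all tested genes. How often shares within other gene sets are separate was not computed, so these have no background. All shares were computed after the ratios were seen, and no test was made of them. They sum to a fixed total, so a lower share of 1 gene raises the others.

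Patterns over the 6 libraries were compared by the root mean square difference of log2 CPM after centring each gene. Among the members, Col4a1 and Col4a2 were nearest to each other (0.0985), followed by Col4a1 and Col18a1 (0.104). Among 9419 named genes of at least 10 CPM, the nearest to Col4a2 was Lamc1 (0.0208), followed by Atp2b1 and Lats2. Those nearest to Col4a1 were Ankrd13c (0.0363), Npc1 and Mbnl2, and those nearest to Col18a1 were Oat (0.0281), Ppp1cb and Arfgap2. For Col15a1 they were Nudt3 (0.0718), Zfp622 and Megf9, for Col4a6 Gsg1l (0.0822), Csrnp2 and Gm47283, for Col4a4 Gata6 (0.0696), Madd and Gtf2h2, and for Col4a3 Tnfaip6 (0.11), Ints6 and Ttc9c. With 6 points and this many genes some near neighbours are always found, so these are descriptions of the libraries.

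The genes that work with collagen IV were counted in 4 lists, to be read beside the shares over all tested genes, which were 1.22% called, 12% at an unadjusted p under 0.05 and 18% with separate groups. Of the 15 laminin chains, nidogens and basement membrane proteoglycans, all measured, 0 passed the test by edgeR (median log2 fold change 0.06, 3 at an unadjusted p under 0.05 and 4 with separate groups). Lama5, the laminin chain of mature epithelial and vascular basement membranes, came nearest. It had 79.7, 78.5 and 66.2 CPM in M4, M5 and M6, against 148, 102 and 113 CPM in M1, M2 and M3, without overlap (log2 fold change -0.70 ± 0.15, SE, edgeR adjusted p = 0.0638). It was called lower by DESeq2 (adjusted p = 0.00249), with a robust edgeR fit (0.0203), without the filter (5.64e-05) and with the endothelial covariate (0.0298), and over all settings its adjusted p reached 0.21.

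Lamb1, a chain of the most widespread laminins, had a log2 fold change of -0.32 ± 0.12 and Lamb2 one of 0.24 ± 0.10 (SE, edgeR adjusted p = 0.287 and 0.374), both without overlap between groups. Lama1, chosen after its values were seen as the point farthest from 0, averaged 2.02 CPM in hypercapnia and 0.613 CPM in room air (1.69 ± 0.78, adjusted p = 0.43).

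Of 18 genes for the folding, secretion and cross-linking of collagen IV, 17 were measured and 0 passed by edgeR (median log2 fold change -0.05, 4 at an unadjusted p under 0.05 and 4 with separate groups). The smallest p-values were those of the collagen galactosyltransferase Colgalt2 (-0.37 ± 0.12, SE, edgeR adjusted p = 0.227), the prolyl hydroxylase subunit P4ha1 (-0.29 ± 0.11, adjusted p = 0.291) and the lysyl hydroxylase Plod2 (-0.27 ± 0.11, adjusted p = 0.355), all without overlap between groups. P4ha3, chosen after its values were seen, averaged 6.12 CPM in hypercapnia and 3.07 CPM in room air (0.99 ± 0.43, adjusted p = 0.392). Pxdn, the peroxidase that links collagen IV networks covalently, named after its values were seen, averaged 176 ± 40.2 CPM in hypercapnia and 174 ± 22.5 CPM in room air (0.02 ± 0.17, adjusted p = 0.982).

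Of 12 receptors of collagen IV and endostatin, all measured, 0 passed by edgeR (median log2 fold change 0.00, 2 at an unadjusted p under 0.05 and 2 with separate groups). The integrin subunit Itga2, a collagen receptor, had 14.5, 13.2 and 11.4 CPM in M4, M5 and M6, against 8.26, 6.09 and 1.91 CPM in M1, M2 and M3 (1.27 ± 0.42, SE, edgeR adjusted p = 0.22). Its order over the libraries followed that of the endothelial marker sum within each group, as did the orders of Col4a1 and Col4a2. Between groups the order broke, since M6 had more Itga2 than M1 with a lower marker sum (2552 against 2661 CPM). With the mean level of endothelial markers as a covariate, the log2 fold change of Itga2 was 0.46. The part of endothelial cells in it was not tested. The adhesion receptor Adgrg6, which binds collagen IV, had -0.30 ± 0.11 (adjusted p = 0.282) and the glypican Gpc4 0.52 ± 0.28 (adjusted p = 0.501), or 0.26 without M5.

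Of 15 proteases and inhibitors of this matrix 8 were measured, and 1 passed by edgeR (median log2 fold change -0.11, 2 at an unadjusted p under 0.05 and 4 with separate groups). Mmp14, the membrane-bound collagenase that also activates Mmp2, had 184, 213 and 168 CPM in M4, M5 and M6, against 354, 374 and 353 CPM in M1, M2 and M3, and every hypercapnia library was below every room air library. Mmp14 fell by 0.94 ± 0.12 on the log2 scale (SE, edgeR adjusted p = 0.00582), a call lost without M2 (adjusted p = 0.0575). The inhibitor Timp3 had a log2 fold change of 0.35 ± 0.10 (adjusted p = 0.156), and 21.3% of its exonic length overlaps another gene model. The stromelysin Mmp3 had one of -0.28 ± 0.15 (adjusted p = 0.514), or -0.096 without M3, and the inhibitor Timp2 one of -0.14 ± 0.09 (0.613). Mmp9, a gelatinase that cleaves collagen IV, named after its values were seen, had 21 counts in the hypercapnia library M5, or 2.07 CPM, and 0 in the other libraries.

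**Figure D5:**
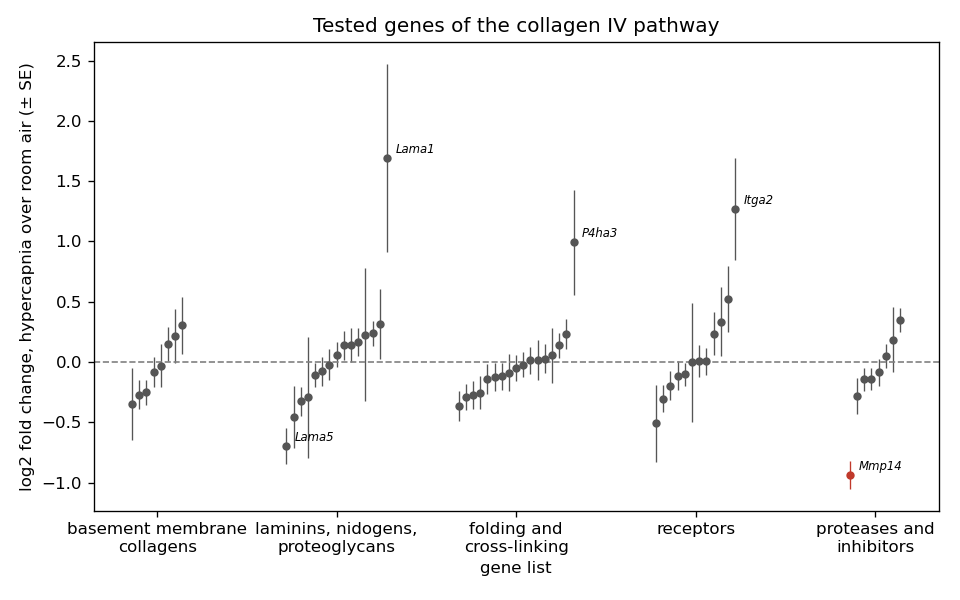
log2 fold change ± SE, hypercapnia over room air, of every tested gene in the collagen list and 4 lists of genes that work with collagen IV, sorted within each list, with genes past an adjusted p of 0.05 in red. Mmp14 (-0.94) is the 1 red point, and Lama1, P4ha3, Itga2 and Lama5 are named as the points farthest from 0 among those that did not pass.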

How the data were processed

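RNA-seq of PDGFRA-sorted mouse lung fibroblasts, 3 hypercapnia and 3 room air libraries, was analysed from raw counts per gene that the authors deposited as 1 table without normalization. The submitters' processing notes name mm10 as the build and, with no order, HTSeq, TopHat2 2.1.0, FastQC and bcl2fastq 2.17.1.14. For the annotation release and the strand setting, the sources used here give nothing. Table columns carry the group but no sample number of the titles, so each was assigned to its group only; 0 columns were left unused. GENCODE M21 named 42546 of 43430 IDs and gave exon lengths.

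The test was edgeR 4.0.16's quasi-likelihood F-test (R 4.3.3), two-sided, TMM factors (0.943 to 1.05), default filter by group (minimum count 10), Benjamini-Hochberg adjustment over 13005 genes and 4 residual degrees of freedom. The SE is the log2 fold change over the square root of F. Ratios of pairs were tested by exact permutation (scipy 1.17.1). DESeq2 1.42.0 and limma 3.58.1 (voom), other factors and filters, libraries left out and an endothelial covariate were alternatives. The fits were tested on simulated data. Every pair of libraries differed by a chi-square per degree of freedom of at least 13.3, so none was a repeat.

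The rule for genes named took all members, the called and the next 3 genes by p of each list, sort markers and the 3 nearest patterns of each member, except those of Col4a5, which are not reported here. Genes named outside it are said to be chosen after their values were seen. Members and lists were chosen with earlier results of these data known.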

Additional observations from a re-analysis of the deposited data

How the results depend on the processing

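No paired analysis was possible because the columns carry no replicate numbers that both groups share. The count of collagen genes called was 0 under all 14 alternatives, and 109 of their 112 log2 fold changes kept their sign; the 3 others were those of Col15a1, at 0.017 by limma-voom, 0.047 without composition factors and 0.23 without M1. With 1 library left out in turn, log2 fold changes ran from -0.36 to -0.20 for Col4a1, -0.18 to -0.005 for Col4a2, -0.52 to -0.04 for Col4a3, 0.14 to 0.47 for Col4a4, 0.07 to 0.31 for Col4a5, 0.003 to 0.56 for Col4a6, -0.20 to 0.23 for Col15a1 and -0.29 to -0.23 for Col18a1. The log2 ratio difference ran from -0.21 to -0.15 for Col4a1 to Col4a2, from -0.88 to -0.25 for Col4a3 to Col4a4, from -0.27 to 0.039 for Col4a5 to Col4a6, positive without M2, and from 0.09 to 0.50 for Col15a1 to Col18a1.

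Over all genes 159 were called, against 435 by DESeq2, 255 with a robust fit, 756 without the filter, and 24 to 148 with 1 library left out (24 without M2, 27 without M5, 42 without M6). Of the laminins, nidogens and proteoglycans 1 was called by DESeq2, with the robust fit, without the filter and with the endothelial covariate, and 0 otherwise. Of the receptors 1 was called without the filter (Itga2, 1.27, adjusted p = 0.00358), and of the proteases and inhibitors 0 to 1 with 1 library left out, 0 without M2. Col1a1 turned to 0.027 without composition factors, 0.0056 without M2 and 0.021 without M4, Mmp3 to 0.0037 and Pecam1 to -0.070 with the endothelial covariate. Pecam1 is among the markers averaged in that covariate, so its value near 0 there follows from how the covariate was made. Without the filter Pecam1 was called higher (0.88, edgeR adjusted p = 2.23e-08). The causes of the other changes were not tested. Col4a3 and Col4a4 had the fewest reads of the 8 genes, 75 to 155 and 111 to 215 per library.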
